A study of Mus musculus with 9 samples.

Results

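RNA sequencing compared mouse primary renal tubular epithelial cells transfected with an Egr1 overexpression plasmid (EGR1OV) with Sham cells, 3 libraries each. The genes described are the protein-coding rows of the expression table whose mean over these 6 libraries was at least 1 FPKM (fragment counts scaled to gene length and library depth). This rule took 10949 genes of 31167 rows, of which 18266 were protein-coding. It uses no difference between groups, but a gene near 0 in one group can enter through the other: 200 genes were under 1 FPKM in Sham on average, of which 150 were later called higher, and 145 were under it in EGR1OV, of which 77 were called lower. The genes just inside the limit were Masp1 at 1.00043, Tfeb at 1.00134 and Rabgap1l at 1.00158 FPKM, and those just outside were Ghrl at 0.99997, Prdm9 at 0.99829 and Acad10 at 0.99746. All cells came from kidneys of C57BL/6 mice, with no age given. By the study's description Sham cells were left without treatment. EGR1OV cells received a plasmid with Egr1 behind a CMV promoter, which is active in most cell types, by lipid-based transfection. The third group of the series (H/R, 6 h at 1.0% oxygen and 18 h of reoxygenation) entered the fit, where it adds to the estimate of the spread between libraries. No group with an empty plasmid is among those compared, so Egr1, plasmid DNA and transfection reagent cannot be told apart as the source of any difference. Nothing says whether replicates came from separate cultures or animals, and p-values measure only the spread between these libraries.

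Egr1 is an immediate early transcription factor with zinc fingers that bind GC-rich DNA, and it is induced within the kidney tubule by injury and growth factors. Epithelial cells also sense nucleic acids from outside through Toll-like receptors, RIG-I-like receptors and cGAS, and these lead to type I interferon and to NF-kB. Secreted interferon acts through Stat and Irf factors on genes with an interferon-stimulated response element. NF-kB acts at kappaB sites, and Nrf2 acts at antioxidant response elements of genes of glutathione and redox metabolism.

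Promoter stretches from RefSeq (GRCm38.p6) are shown for genes of 4 regulated lists, to place such sequences beside the changes given later. They are the called genes of each list with the largest change whose bases before the start site hold the searched letters, on either strand. Capitals mark every match within the stretch. For the interferon-stimulated genes Isg15 (chr4:156200836-156200924, minus strand) and Ifit1 (chr19:34640765-34640853, plus strand) the letters searched were GAAANNGAA, which occurred 3 times before the start of each gene.
Isg15: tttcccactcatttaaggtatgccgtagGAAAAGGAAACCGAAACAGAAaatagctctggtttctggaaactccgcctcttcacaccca
Ifit1: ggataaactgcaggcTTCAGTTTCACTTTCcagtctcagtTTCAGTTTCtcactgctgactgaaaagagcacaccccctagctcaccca
For the chemokine genes Cxcl10 (chr5:92349000-92349088, minus strand) and Cxcl1 (chr5:90891136-90891224, plus strand) the kappaB letters GGGANNTTC were used. The matches of Cxcl1 overlap each other on the opposite strands.
Cxcl10: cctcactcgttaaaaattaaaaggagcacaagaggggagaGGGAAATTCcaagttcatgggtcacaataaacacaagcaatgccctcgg
Cxcl1: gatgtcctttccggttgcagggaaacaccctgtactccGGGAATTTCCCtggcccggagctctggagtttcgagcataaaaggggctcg
For the glutathione transferase genes Mgst1 (chr6:138140431-138140519, plus strand) and Gsta3 (chr1:21240424-21240512, plus strand) the antioxidant response letters were TGACNNNGC.
Mgst1: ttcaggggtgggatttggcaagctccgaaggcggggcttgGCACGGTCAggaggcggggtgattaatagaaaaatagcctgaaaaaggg
Gsta3: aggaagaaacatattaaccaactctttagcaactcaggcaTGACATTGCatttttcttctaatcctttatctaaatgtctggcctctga
For the early response genes Nr4a1 (chr15:101266746-101266834, plus strand) and Zfp36 (chr7:28379285-28379373, minus strand) the Egr letters were GCGNGGGCG.
Nr4a1: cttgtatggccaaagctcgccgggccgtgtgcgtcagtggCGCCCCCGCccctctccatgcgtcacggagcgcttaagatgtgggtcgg
Zfp36: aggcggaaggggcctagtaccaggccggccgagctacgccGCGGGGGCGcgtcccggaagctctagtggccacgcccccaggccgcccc

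A promoter window of 300 bases, from 250 before to 50 after the start, was matched by symbol for 8581 of the 10949 genes. Genes were called higher or lower when they changed at least 1.3-fold with a limma adjusted p below 0.05, so the shares below describe genes sorted by this comparison. Fold limits for calls were applied to FPKM + 1. The interferon letters were in 29.1% of the 251 windows of genes called higher by at least 2-fold and in 14.5% of the 897 windows of all genes called higher. They were in 7.56% of the 529 windows of genes called lower and in 6.16% of the 7155 windows of genes not called. They were in 8.57% of all 27025 windows given. The kappaB letters were in 9.16% of the windows of genes at least 2-fold higher, in 6.02% of those of all genes called higher, in 3.27% of those not called and in 2.27% of those called lower. The Egr letters were in 3.98% of the windows of genes at least 2-fold higher, in 9.48% of those of all genes called higher, in 11.3% of those not called and in 12.5% of those called lower. In the 726 windows of genes called higher but in no innate immune list, the Egr letters were in 11% and the interferon letters in 8.95%. Of the windows of interferon-stimulated genes 3.54% held the Egr letters. For the antioxidant letters the shares were 14.7% (at least 2-fold higher), 13.8% (all called higher), 15.1% (not called) and 16.6% (called lower). The letters TGATGNAA (CARE in the plot), an element bound by Atf4 and C/EBP factors, were in 5.18%, 3.12%, 1.97% and 2.46% in the same order. A match is a description of these letters in this window and not a binding site.

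**Figure D1:**
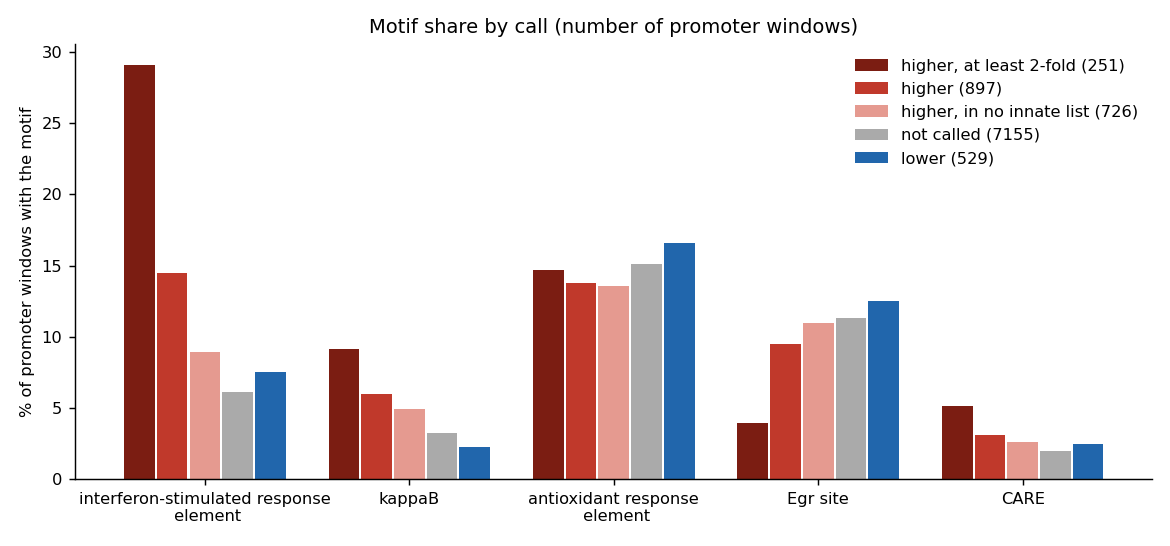
Share of promoter windows (percent of windows, vertical axis) that hold each searched motif on either strand, with bars for genes at least 2-fold higher, all genes called higher, those of them in no innate immune list, genes not called and genes called lower in EGR1OV. The interferon-stimulated response element stood at 29.1% in the first set and at 6.16% in genes not called, and the Egr site at 3.98% and 11.3%.

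Among gene lists, 54 of 113 windows of interferon-stimulated genes held the interferon letters (47.8%), against 6.16% of the windows of genes not called. Of the Nrf2 list, 10 of 30 windows held the antioxidant letters (33.3%), where 15.1% of the windows of genes not called and 12.5% of all windows did. In the integrated stress response list 6 of 25 windows held TGATGNAA (24%), against 1.97% of genes not called and 4.06% of all windows. In the list of the Egr family, Nab corepressors and serum response genes 10 of 22 windows held the Egr letters (45.5%), as did 6 of 27 windows of reported Egr1 targets (22.2%), against 11.3% of genes not called and 5.55% of all windows.

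Depth recovered from the FPKM steps was 16183617 to 18384022 reads over the 9 libraries. Replicates lay close together, with a median coefficient of variation at 5 FPKM or more of 3.4% in Sham and 3.78% in EGR1OV (n = 3 each). Of the epithelial and tubule markers, Epcam had 76.2 ± 0.881 FPKM in Sham (SD, n = 3), Cdh16 (Ksp-cadherin) 24.3 ± 0.636 and Pax8 13.1 ± 0.279. Several defining markers of single segments were at or near 0. Umod (uromodulin, thick limb) was listed at 0 in all 6 libraries, Hnf4a (proximal tubule) at 0 in all Sham libraries, and Slc34a1 (proximal phosphate transporter) at 0 in 5 of 6. Of 45 proximal tubule genes measured, 8 reached 1 FPKM, and of 42 genes of the loop, distal tubule and collecting duct, 19 did. Lrp2 of the first list and Trpm6 of the second were among them, with values given below. Podocyte Nphs1 stayed at 0.0185 FPKM or less in every library, and the fibroblast gene Lum was at 0 in 5 of 6.

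The targeted gene was read first. Egr1 (ENSMUSG00000038418, chromosome 18 from 34859823 to 34864984) had 6.20, 6.91 and 6.09 FPKM in Sham and 45.7, 42.2 and 40.1 FPKM in EGR1OV. All EGR1OV values lay above all Sham values, by a ratio of means of 6.66 and a log2(FPKM + 1) change of 2.56 (SE 0.07, limma adjusted p 2.19e-09). Permuting the 6 libraries exactly (two-sided) gave p = 0.1, the smallest that 3 against 3 allows. Gene-level values cannot separate transcripts of the plasmid from those of the endogenous gene. Its relatives did not exceed 1 FPKM: Egr2 had 0.832 ± 0.129 FPKM in Sham and 0.615 ± 0.0755 in EGR1OV (SD, n = 3 each), and Egr3 had 0.194 ± 0.012 and 0.114 ± 0.0383.

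Early response genes and the corepressors of Egr1 moved with modest sizes. Of the 29 genes of the list of Egr family, Nab and serum response genes, 13 were called higher and 1 lower, with a median log2 change of 0.35. Egr1 itself, the gene on the plasmid, is among these 13 and is no sign of a response. Nab1, a corepressor that binds Egr1, had 11.4, 11.6 and 11.4 FPKM in Sham and 18.6, 19.3 and 18.1 in EGR1OV, a ratio of 1.63 (limma adjusted p 4.96e-07). Its paralog Nab2 had 2.89 ± 0.334 and 3.45 ± 0.549 FPKM (SD, n = 3 each), and its values overlapped. Fos, a partner in the AP-1 complex, went from 1.76, 1.51 and 1.73 to 4.84, 4.74 and 4.07 FPKM (2.73-fold), and the orphan nuclear receptor gene Nr4a1 rose 2.46-fold. Jun had 27.9 ± 1.79 and 32 ± 2.51 FPKM with overlapping values. Maff, a small Maf protein, fell from 54.6, 57.6 and 54.2 to 33.2, 35.3 and 31.4 FPKM. Maff was the 1 gene of this list called lower.

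Of 37 reported Egr1 target genes 12 were called higher and 5 lower, with a median of 0.19. Of the 37, 3 were under 1 FPKM in Sham and so had to be higher to enter, and of the other 34 genes 9 were called higher. Those called higher with the largest changes were Lcn2 (lipocalin 2), Tnf, Tnfsf10 and Icam1, which are also inflammatory genes of other lists. Several growth and stress targets were not called: Pdgfa had 24.6 ± 0.831 and 21.7 ± 0.894 FPKM and Gadd45b 85.1 ± 1.23 and 88.9 ± 4.47 (SD, n = 3 each). F3 (tissue factor) had 305, 304 and 309 FPKM in Sham and 219, 219 and 235 in EGR1OV, and fell by 0.45 on the log2 scale. Vegfa rose 1.54-fold, from 26.01, 25.5 and 23.7 to 39.7, 40.9 and 35.4 FPKM. Sox9, a factor of tubule repair, had 12.3, 14.1 and 12.97 FPKM in Sham and 17.6, 18.7 and 17.3 in EGR1OV. Its log2 change of 0.42 (SE 0.07, limma adjusted p 0.000973) lost the call without Sham replicate 1 (0.38) and after quantile normalization (0.32).

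Across all 10949 genes 1171 were called higher (10.7%) and 722 lower (6.59%), or 17.3% in either direction. The 10.7% and 6.59% are the background to every count of called genes in a list, above and below. Lists for which no gene is said to have entered through 1 group held at most 2 such genes per group. Over all 13985 genes fitted the shares were 9.87% higher and 6.51% lower. On the fitted scale of log2(FPKM + 1) rises were larger than falls: 334 genes were at least 2-fold higher (3.05%) and 75 at least 2-fold lower (0.685%). Folds given for single genes are ratios of mean FPKM instead. A low gene can therefore pass 2-fold in its ratio and not be counted here, such as Il15 with a fitted log2 change of 0.93. At 16-fold or more there were 48 rises and 0 falls among the called genes. Without a fold limit, 5745 genes (52.5%) had an adjusted p under 0.05, so most of those changes were below 1.3-fold. Genes called higher made up 61.9% of the calls in the deposited FPKM, 56.5% when scaled by median ratios and 46.6% when quantile-normalized. The median of all genes was 0.03, 0.01 and -0.05 in these settings, so small changes in one direction depend on the scaling. Of the called genes 1594 kept call and sign after quantile normalization and 1769 after median-ratio scaling. Values of Sham and EGR1OV did not overlap for 62.2% of all genes.

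**Figure D2:**
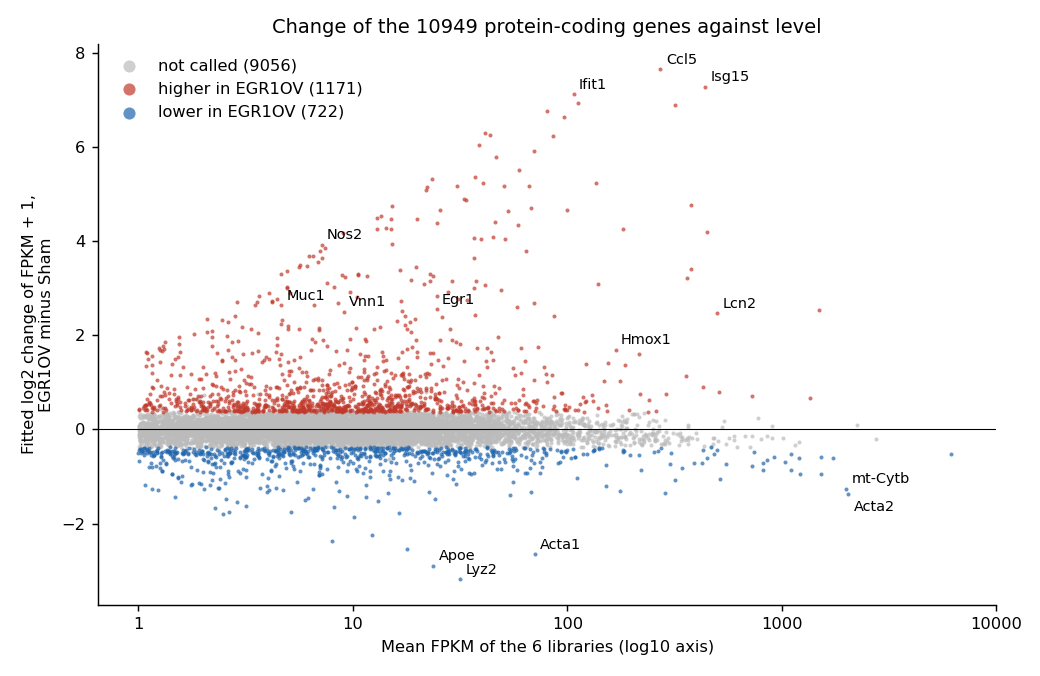
Fitted log2 change of FPKM + 1 (EGR1OV minus Sham, vertical axis) of each of the 10949 genes against its mean FPKM over the 6 libraries (log10 axis), coloured by call. The 1171 genes called higher reach up to 7.65 (Ccl5), and the 722 genes called lower reach down to -3.19 (Lyz2).

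The interferon response held the largest rises. Of 141 interferon-stimulated genes 130 were called higher (92.2%, against 10.7% of all genes) and 0 lower, with a median log2 change of 2.90. Of the 141, 50 were under 1 FPKM in Sham and so had to be higher to enter, and of the other 91 genes 80 were called higher. Isg15, a ubiquitin-like modifier, had 4.02, 7.59 and 2.97 FPKM in Sham and 835, 887 and 885 in EGR1OV. Irf7, the factor that amplifies type I interferon, went from 0.918, 0.942 and 0.610 to 218, 228 and 223 FPKM. No library of one group came near the other group in either gene. Paralogs of this list share sequence (Ifit3 and Ifit3b, for example), and reads may be split between them. Together the list held 0.353 to 0.399% of all FPKM in Sham and 3.61 to 3.69% in EGR1OV. The interferon gene Ifnb1 was at 0 in all Sham libraries and had 3.05, 3.02 and 1.90 FPKM in EGR1OV. Its receptor chain Ifnar1 had 19.1 ± 0.769 and 17.7 ± 0.255 FPKM (SD, n = 3 each) and was not called.

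Sensors of nucleic acids rose at several levels of the pathway, with 14 of 18 called higher and a median of 1.25. Of the 18, 3 were under 1 FPKM in Sham and so had to be higher to enter, and of the other 15 genes 11 were called higher. Ifih1 (MDA5, a sensor of long double-stranded RNA) had 2.58, 3.16 and 3.03 FPKM in Sham and 35.0, 33.1 and 34.6 in EGR1OV. Tlr3, the endosomal sensor of double-stranded RNA, went from 4.89, 4.44 and 4.83 to 27.4, 25.9 and 28.3 FPKM. Mb21d1, which encodes the DNA sensor cGAS, had 0.722, 0.709 and 0.778 FPKM in Sham and 1.81, 1.81 and 1.46 in EGR1OV, a 2.30-fold rise (limma adjusted p 0.00023). The adaptors moved less. Tmem173 (STING) had 4.88 ± 0.335 and 6.32 ± 0.201 FPKM and Mavs 14.8 ± 0.447 and 16 ± 0.0267 (SD, n = 3 each), and neither was called.

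Antigen presentation by MHC class I rose and MHC class II fell. Of 24 class I genes 20 were called higher, with a median of 2.69. Of the 24, 5 were under 1 FPKM in Sham and so had to be higher to enter, and of the other 19 genes 15 were called higher. B2m, the invariant light chain, had 429.6, 442.8 and 433.7 FPKM in Sham and 2551.5, 2450.8 and 2628.6 in EGR1OV, 5.84-fold more. Nlrc5, the transactivator of class I genes, had 0.201, 0.176 and 0.164 FPKM in Sham and 12.03, 12.4 and 11.7 in EGR1OV. Psmb8, a catalytic subunit of the immunoproteasome, rose 18.4-fold, whereas its counterpart in the constitutive proteasome, Psmb5, had 59.8 ± 2.16 and 61.1 ± 2.56 FPKM with overlapping values. Of 33 constitutive proteasome genes 4 were called higher (12.1%, against 10.7% of all genes), and after quantile normalization 1 was. Of 7 class II genes 5 were called lower: H2-Aa went from 1.72, 1.81 and 2.13 to 0.353, 0.196 and 0.254 FPKM, and Cd74 (invariant chain) fell by 0.53 on the log2 scale. Of the class II genes called lower, 2 were under 1 FPKM in EGR1OV and entered through Sham. Leukocyte markers, which mark cells that carry class II, also fell (values below), and their part in the class II fall was not tested.

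Of 20 chemokine genes 13 were called higher (65%, against 10.7% of all genes) and 5 lower (25%, against 6.59%). Of the 20, 8 were under 1 FPKM in Sham and so had to be higher to enter, and of the other 12 genes 5 were called higher. Of those called lower, 3 were under 1 FPKM in EGR1OV and entered through Sham. Ccl5, which attracts T cells and monocytes, had the largest rise of all genes, from 1.77, 1.91 and 1.39 to 507, 526 and 589 FPKM (ratio of means 319.6). The monocyte chemokine gene Ccl2 had 4.65, 3.63 and 3.99 FPKM in Sham and 132, 141 and 121 in EGR1OV, and the neutrophil chemokine gene Cxcl1 rose 50.0-fold. Ppbp (platelet basic protein), which like Cxcl1 encodes a ligand of CXCR2, fell from 76.5, 81.0 and 78.8 to 31.8, 29.0 and 27.7 FPKM, and Cxcl12 fell from 2.90, 2.57 and 2.54 to 1.53, 1.49 and 1.48 FPKM.

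Among 20 cytokine genes 13 were called higher (65%, against 10.7% of all genes) and 1 lower. Of the 20, 8 were under 1 FPKM in Sham and so had to be higher to enter, of which 7 were called. Of the other 12 genes 6 were called higher. Il1b had 0.638, 0.150 and 0.381 FPKM in Sham and 9.19, 7.06 and 9.19 in EGR1OV, and the gene of its antagonist, Il1rn, rose 8.51-fold. Csf1, the growth factor of macrophages, had 103, 102 and 103 FPKM in Sham and 264, 268 and 266 in EGR1OV. Lif, a ligand of gp130, rose 2.32-fold and Il15 2.44-fold. Il12b was at 0 in all Sham libraries and had 3.03, 1.93 and 1.57 FPKM in EGR1OV.

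The NF-kB list had 16 of 26 genes called higher and 0 lower, with a median of 0.53. Its inhibitors rose with its targets: Nfkbia went from 35.9, 36.3 and 33.1 to 81.6, 79.5 and 76.3 FPKM and Tnfaip3 (A20) from 33.3, 33.3 and 34.2 to 62.1, 62.0 and 63.5. Adhesion molecule genes rose more, Icam1 by 4.25-fold and Vcam1 by 4.08-fold. Zc3h12a, which encodes the ribonuclease Regnase-1 that degrades cytokine mRNA, had 6.14, 5.43 and 5.63 FPKM in Sham and 34.9, 33.3 and 31.7 in EGR1OV. The Stat and Socs list had 10 of 20 genes called higher, with Socs1, an inhibitor of Jak kinases, up 2.68-fold. Stat3 had 12.4 ± 0.53 and 14.8 ± 0.277 FPKM (SD, n = 3 each) and was not called.

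Complement genes moved in both directions, with 5 of 15 called higher and 7 lower. Of those called higher 3 were under 1 FPKM in Sham, and of those called lower 2 were under it in EGR1OV. C3, the central component, had 0.485, 0.580 and 0.424 FPKM in Sham and 28.4, 28.6 and 27.0 in EGR1OV. The C1q chains, which macrophages make, fell: C1qa had 30.3, 32.5 and 30.5 FPKM in Sham and 4.63, 4.18 and 4.69 in EGR1OV. C3 and the C1q chains thus moved in opposite directions.

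**Figure D3:**
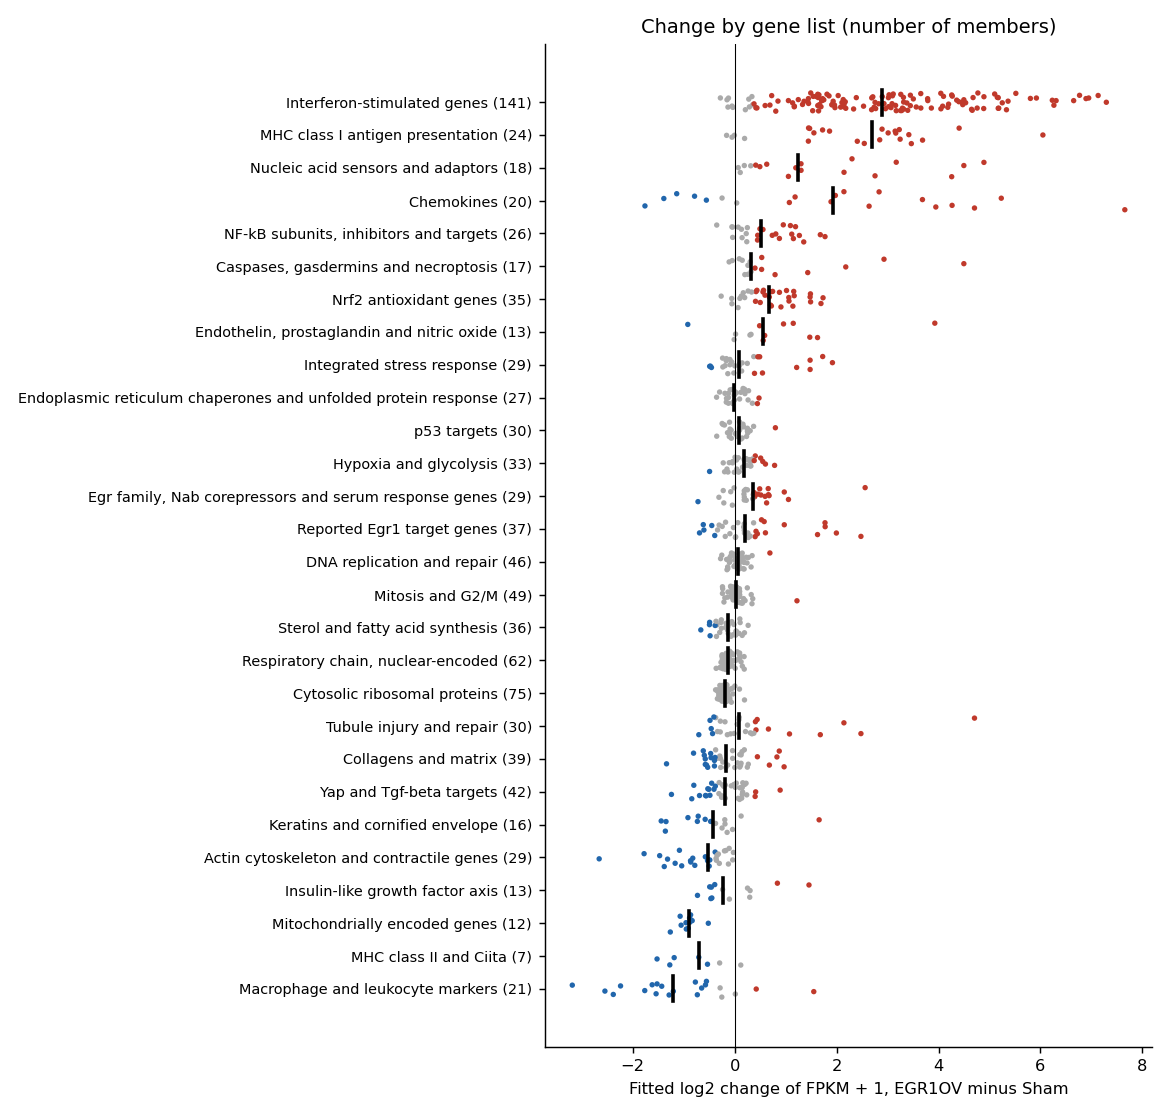
Fitted log2 change of FPKM + 1 (EGR1OV minus Sham, horizontal axis) of the genes of 28 lists, 1 point per gene, red called higher, blue called lower, grey not called, with a black bar at the list median. Interferon-stimulated genes have their median at 2.90, Nrf2 genes at 0.68, actin and contractile genes at -0.52 and macrophage markers at -1.20, while mitosis genes lie around 0.02.

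Of 17 genes of caspases, gasdermins and necroptosis 8 were called higher (47.1%, against 10.7% of all genes) and 0 lower, with a median of 0.32. Of the 17, 2 were under 1 FPKM in Sham and so had to be higher to enter, and of the other 15 genes 6 were called higher. Mlkl, which perforates the membrane in necroptosis, had 5.47, 6.48 and 5.08 FPKM in Sham and 50.7, 48.9 and 49.4 in EGR1OV, and Zbp1, a nucleic acid sensor that can trigger it, had 0.224, 0.163 and 0.155 FPKM in Sham and 27.0, 24.5 and 25.4 in EGR1OV. Mlkl, Zbp1 and Casp4 also stand in the list of interferon-stimulated genes. Casp4, a sensor of lipopolysaccharide, rose 12.3-fold, Gsdmd, the pore protein of pyroptosis, 3.81-fold and Ripk3 1.52-fold.

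Of 16 Bcl2 family genes 6 were called higher and 2 lower. Those called higher included the BH3-only genes Bid, from 11.9, 12.8 and 12.9 to 28.2, 27.96 and 29.3 FPKM, Bmf (2.55-fold) and Bcl2l11 (Bim, 1.71-fold). Bok, a pore former, fell from 51.0 ± 1.25 to 32.2 ± 0.552 FPKM. The p53-driven BH3-only genes Bbc3 (Puma) and Pmaip1 (Noxa) had 17.3 ± 0.377 and 18.1 ± 0.897, and 258 ± 5.13 and 241 ± 15.4 FPKM (SD, n = 3 each). Of 30 p53 targets only Ddb2 was called (2.14-fold higher), or 3.33% against 10.7% of all genes. Cdkn1a (p21) had 242 ± 2.04 and 274 ± 3.07 FPKM and Mdm2 67.9 ± 2.12 and 75.3 ± 2.62, neither past the fold limit. Death ligand and receptor genes had 7 of 17 called higher, among them Tnfrsf1b (2.75-fold) and Cd40 (2.41-fold).

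Outside the innate immune lists, the Nrf2 list had the largest share of genes called higher. Of 35 genes 25 were called higher (71.4%, against 10.7% of all genes) and 0 lower, with a median of 0.68, and 21 remained called higher after quantile normalization. Of the 35, 1 was under 1 FPKM in Sham and so had to be higher to enter, and of the other 34 genes 24 were called higher. Hmox1, which degrades haem, had 76.7, 79.0 and 80.2 FPKM in Sham and 263, 258 and 249 in EGR1OV (3.26-fold). Srxn1, which repairs peroxiredoxins, rose from 17.1, 16.3 and 17.6 to 60.7, 58.3 and 57.7 FPKM, and Nqo1, a quinone reductase, from 1.61, 1.96 and 2.15 to 8.30, 6.86 and 6.35. The values of the 2 groups were apart for each of these genes, as they were for 62.2% of all genes. Gclm, the regulatory subunit for glutathione synthesis, rose 2.11-fold, and Slc7a11, the cystine carrier, 3.96-fold. The glutathione transferase gene Mgst1, whose promoter stretch is given above, had 9.49, 8.46 and 9.78 FPKM in Sham and 22.7, 21.9 and 21.4 in EGR1OV, and Gsta3 had 0.728, 0.555 and 0.474 in Sham and 2.81, 2.13 and 2.70 in EGR1OV. The regulator gene Nfe2l2 itself rose 1.53-fold, from 30.2, 31.2 and 31.6 to 48.1, 46.5 and 47.3 FPKM. As a share of all FPKM the list went from 0.720 to 0.763% in Sham to 1.17 to 1.24% in EGR1OV.

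Iron and metal genes were mixed, with 4 of 15 called higher and 1 lower. Lcn2, the siderophore-binding lipocalin that marks tubule injury, had 156.2, 151 and 147.1 FPKM in Sham and 845, 840.2 and 858 in EGR1OV. Ceruloplasmin (Cp), a ferroxidase, rose 4.99-fold and the ferritin heavy chain Fth1 1.65-fold. The iron exporter Slc40a1 (ferroportin) fell from 4.70, 4.33 and 4.64 to 2.68, 2.85 and 2.64 FPKM. Slc11a2, an importer of iron, rose 2.12-fold, so the importer and the exporter gene moved in opposite directions. The transferrin receptor gene Tfrc had 23.9 ± 0.445 and 19.5 ± 0.595 FPKM (SD, n = 3 each) with no call. Metallothionein Mt1 had 30.6 ± 1.47 and 36.8 ± 1.15 FPKM with no call.

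The integrated stress response was split. Of 29 genes 9 were called higher and 3 lower, with a median of 0.09 that turned to -0.01 after quantile normalization. Ddit3 (CHOP) had 22.8, 23.1 and 24.1 FPKM in Sham and 64.7, 68.5 and 67.2 in EGR1OV, Cebpb 1.70, 1.79 and 2.90 in Sham and 10.1, 13.3 and 9.05 in EGR1OV, and Nupr1 rose 3.40-fold. Atf4, the central factor, had 186 ± 4.17 and 184 ± 3.28 FPKM (SD, n = 3 each), and its amino acid target Asns 70.3 ± 0.59 and 62.5 ± 1.58. Atf3 rose 2.57-fold and the cystine carrier gene Slc7a11, given above, also belongs here, while the amino acid transporter genes Slc7a1 and Slc7a3 fell by 0.46 and 0.49 on the log2 scale. Stress transcription factors thus stand among the rises, and amino acid genes on both sides. Of 20 tRNA synthetase genes 2 were called higher, Vars (1.54-fold) and Kars (1.45-fold).

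Protein folding genes stayed near the background or below it. Of 27 genes of the endoplasmic reticulum 2 were called higher, and the chaperone gene Hspa5 (BiP) had 177 ± 4.42 and 199 ± 1 FPKM, and Xbp1 34.9 ± 0.215 and 34.1 ± 1.06 (SD, n = 3 each). Of 23 heat shock genes 2 were called higher and 1 lower. Hspb8, a small chaperone of selective autophagy, rose from 29.8 ± 1.18 to 52.1 ± 1.61 FPKM, and Hspb1 fell from 494 ± 9.43 to 366 ± 12.9 FPKM, a call lost when quantile-normalized (-0.34). Of 33 hypoxia and glycolysis genes 6 were called higher (18.2%, against 10.7% of all genes) and 1 lower (3.03%, against 6.59%). Hexokinase gene Hk2 had 34.6, 34.6 and 31.7 FPKM in Sham and 58.8, 61.1 and 56.0 in EGR1OV, and Pfkfb3, an activator of glycolysis, rose 1.49-fold. The glucose transporter gene Slc2a1 had 45.5 ± 0.934 and 38.8 ± 0.794 FPKM and Ldha 145 ± 4.26 and 154 ± 4.01, and neither was called.

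Of 13 genes of endothelin, prostaglandin and nitric oxide 8 were called higher (61.5%, against 10.7% of all genes) and 1 lower, with a median of 0.56. Of the 13, 2 were under 1 FPKM in Sham and so had to be higher to enter, and of the other 11 genes 6 were called higher. The inducible cyclooxygenase gene Ptgs2 had 50.0, 55.0 and 52.6 FPKM in Sham and 125, 112 and 116.7 in EGR1OV. The prostaglandin E synthase gene Ptges, next in the same route, rose from 0.619, 0.409 and 0.863 to 4.09, 4.22 and 3.70 FPKM, and Ptges2 rose 3.10-fold. Nos2, the inducible nitric oxide synthase, was at 0, 0.013 and 0 FPKM in Sham, below the 3-read floor in each library, and at 14.9, 14.6 and 13.4 in EGR1OV. Endothelin 1 (Edn1), a vasoconstrictor, fell from 47.5, 48.3 and 49.6 to 25, 24.4 and 26.03 FPKM. The groups did not overlap in any of these 5 genes, as in 62.2% of all genes.

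**Figure D4:**
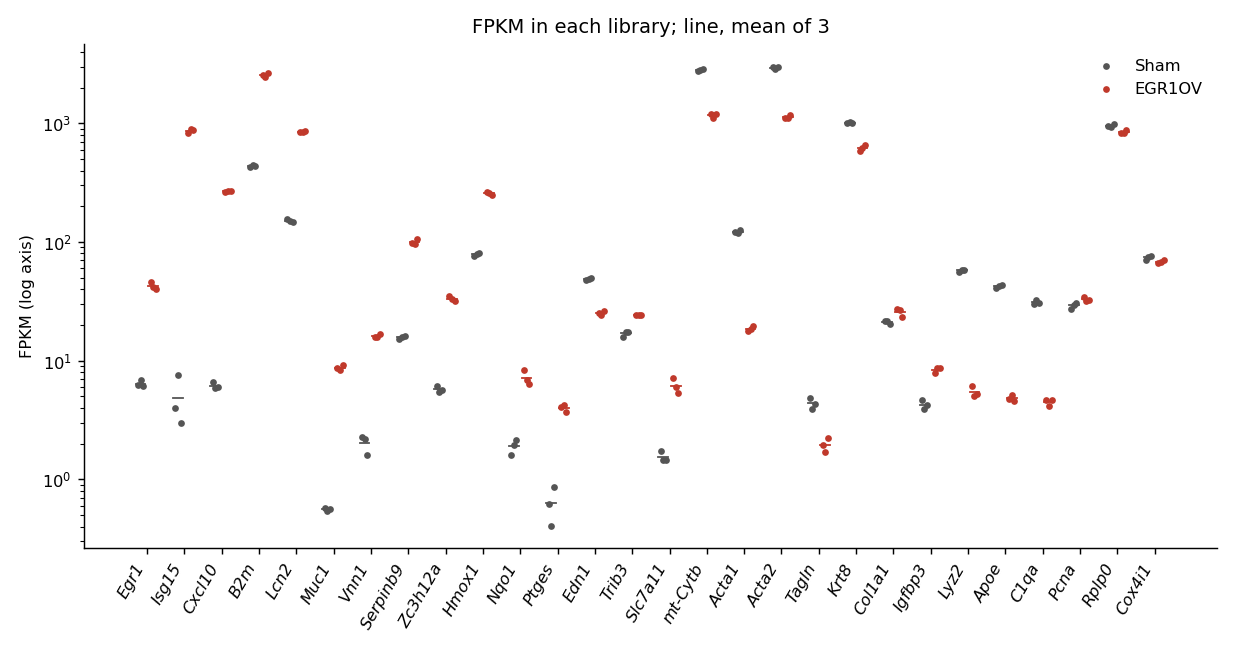
FPKM (log axis) of 28 genes in each Sham (grey) and EGR1OV (red) library, 3 points per group with a line at the mean. Egr1 moved from 6.40 to 42.6, Lcn2 from 151 to 848 and Acta2 from 2947 to 1131 FPKM on average, while Cox4i1 had means of 74.3 and 68.2.

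Contractile and cytoskeletal genes fell. All 29 genes of the actin and contractile list had a change below 0, where 44.6% of all genes did. Of these, 18 were called lower (62.1%, against 6.59% of all genes) and 0 higher, with a median of -0.52, and quantile normalization also left 18 called lower. Smooth muscle actin (Acta2) had 2986.3, 2873.1 and 2980.5 FPKM in Sham and 1100.9, 1116.9 and 1174.9 in EGR1OV, 2.61-fold less. Skeletal actin (Acta1) fell from 120.5, 119.5 and 126.6 to 17.6, 18.4 and 19.5 FPKM, a ratio of 6.59. The actin-binding genes Cnn1 (calponin) and Myl9 (myosin light chain) fell by 1.32 and 1.08 on the log2 scale, and Lmod1 (leiomodin) by 1.47. As a share of all FPKM the list went from 3.79 to 4.04% in Sham to 2.34 to 2.36% in EGR1OV.

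Epithelial intermediate filament genes fell as well, with 8 of 16 keratin and cornified envelope genes called lower and 1 higher. Krt8 had 1002.8, 1026.1 and 1011.6 FPKM in Sham and 581, 616.5 and 656 in EGR1OV, and its partner Krt18 fell by 0.73 on the log2 scale. Sprr1a, a cornified envelope protein induced by injury, fell from 405, 381 and 438 to 155, 152 and 172 FPKM. Krt16, a keratin of stressed epidermis, rose 12.5-fold from 0.350, 0.147 and 0.194 FPKM. Being under 1 FPKM in Sham, Krt16 had to be higher to enter, and it is the 1 gene of this list called higher. Krt7, another keratin of simple epithelium, had a log2 change of -0.37, just short of the fold limit.

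Of 42 Yap and Tgf-beta pathway genes 12 were called lower and 3 higher. Ankrd1, a Yap target, fell from 850, 883 and 847 to 630, 588 and 626 FPKM. Other classical Yap targets did not reach the fold limit: Ctgf had 859 ± 12.5 and 742 ± 26.8 FPKM and Cyr61 had 530 ± 6.79 and 428 ± 13.3 (SD, n = 3 each). Bmp7, a differentiation factor of the tubule, fell from 6.52, 6.51 and 6.66 to 2.34, 2.101 and 2.17 FPKM (limma adjusted p 2.52e-08). Ligand genes of the family fell, among them Tgfb3 by 0.84 and Bmp2 by 0.80 on the log2 scale, and Tgfb1 rose 1.35-fold. The Tgfb1 call was lost without Sham replicate 1 (0.37), when scaled by median ratios (0.37) and when quantile-normalized (0.30).

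Matrix genes fell more often than they rose, with 13 of 39 collagens and matrix genes called lower and 5 higher. Fibronectin (Fn1) had 2127.7, 2087.3 and 2056.2 FPKM in Sham and 1341.7, 1408.2 and 1343.4 in EGR1OV. Col4a1, of the basement membrane, fell by 0.60 on the log2 scale and Col12a1 by 1.34. Laminin chain genes went the other way, with Lama3 at 9.25, 9.48 and 9.04 FPKM in Sham and 18.9, 19.3 and 19.2 in EGR1OV, Lamb3 up 1.64-fold and Lama1 up 3.42-fold. Fibrillar Col1a1 had 21.1 ± 0.79 and 25.7 ± 2.29 FPKM with no call. Of 15 integrin genes 6 were called lower and 2 higher. Of those called lower, 2 were under 1 FPKM in EGR1OV and entered through Sham. The lower ones include the leukocyte integrins Itgax (ratio 7.58) and Itgb2, which follow the leukocyte markers below, while Itga2, a collagen receptor, rose from 14.99 ± 0.902 to 28.6 ± 1.5 FPKM.

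Proteases and inhibitors had 9 of 25 called higher and 6 lower. Serpinb9, an inhibitor of granzyme B, had 15.2, 15.9 and 16.1 FPKM in Sham and 98.5, 96.0 and 106.9 in EGR1OV. The aggrecanase gene Adamts4 rose 3.49-fold, the sheddase gene Adam8 3.50-fold and Timp1, an inhibitor of metalloproteases, 1.499-fold. Plau (urokinase) had 274 ± 4.09 and 218 ± 12.9 FPKM with no call.

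All 12 mitochondrially encoded genes that reached 1 FPKM were called lower, with a median of -0.90. Cytochrome b (mt-Cytb) had 2752.9, 2792.7 and 2889.5 FPKM in Sham and 1197.4, 1112.7 and 1206.2 in EGR1OV (ratio 2.40), and mt-Nd1 of complex I 1944.9, 1980.4 and 2079.6 in Sham and 1093.2, 959.1 and 1047.9 in EGR1OV. Mt-Co1, at the highest level, fell least, from 7157.2, 7069.7 and 7490 to 5332.6, 4983.5 and 4868.9 FPKM. The mt-Co1 call was lost under quantile normalization (-0.00), which replaces each value by that of its rank, as was that of Fn1, and 11 of the 12 genes were called lower there. As a share of all FPKM the list went from 5.86 to 5.98% in Sham to 3.36 to 3.75% in EGR1OV.

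Levels among mitochondrial genes were uneven, with mt-Co3 at 23.3 ± 5.64 FPKM in Sham and mt-Cytb at 2812 ± 70.3 (SD, n = 3 each). Nuclear copies of mitochondrial sequence could share reads with such genes, which was not tested. Of 6 such copies, pseudogenes that are not among the genes counted, 5 changed by -0.96 to -1.20 on the log2 scale, and Gm10222 changed by -0.53 (limma adjusted p 0.504). Gm10925 had 36.3 ± 2.84 FPKM in Sham and 15.4 ± 2.31 in EGR1OV (SD, n = 3 each). None of 62 nuclear genes of the respiratory chain was called in FPKM as deposited (quantile normalization called 1 lower), and 51 lay below 0 with a median of -0.13. Cox4i1 of complex IV had 70.5, 75.5 and 76.9 FPKM in Sham and 66.3, 67.2 and 71.1 in EGR1OV, and Ndufs1 of complex I had 8.83 ± 0.48 and 8.18 ± 0.281. Mitochondrial and nuclear genes of the same complexes thus differed in size of change.

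**Figure D5:**
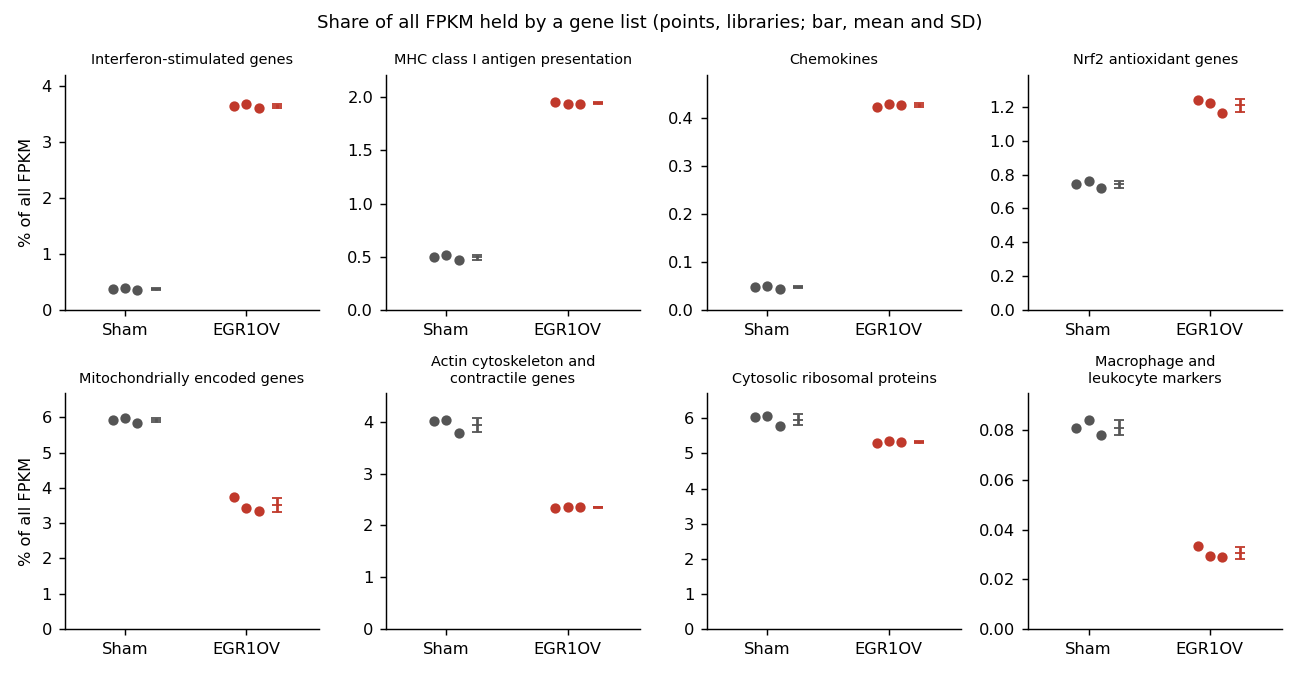
Share of all FPKM (percent, vertical axes from 0, with a scale of its own per panel) held by 8 gene lists in each Sham (grey) and EGR1OV (red) library, with the mean and SD of 3 beside the points. In each panel the points of the 2 groups are apart, as in the interferon-stimulated genes with at most 0.399% in Sham and at least 3.61% in EGR1OV.

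Ribosomal protein genes showed a small common shift. Of 75 genes 0 were called, and 72 lay below 0 with a median of -0.19. Rplp0 had 957 ± 22.2 and 844 ± 34.9 FPKM and Rps6 365 ± 4.64 and 316 ± 13.9 (SD, n = 3 each). Sterol and fatty acid synthesis had 5 of 36 genes called lower and 0 higher, and 9 lower after quantile normalization. Fasn (fatty acid synthase) fell from 29.7, 28.3 and 28.3 to 19.5, 21.1 and 20.3 FPKM and Idi1 by 0.66 on the log2 scale. In cholesterol handling Npc2, the lysosomal carrier, rose 2.28-fold and Cyp7b1, an oxysterol hydroxylase, 3.48-fold. Apoe fell from 41.2, 42.8 and 43.2 to 4.79, 5.18 and 4.56 FPKM, the largest fall but for that of Lyz2. Of 22 fatty acid oxidation genes 1 was called, Acaa1a (1.47-fold higher).

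Nucleotide and NAD genes had 7 of 19 called higher and 2 lower. Of the 19, 3 were under 1 FPKM in Sham and so had to be higher to enter, of which 2 were called. Of the other 16 genes 5 were called higher. Nampt, the rate-limiting enzyme of NAD salvage, had 7.28, 8.26 and 8.58 FPKM in Sham and 29.9, 27.7 and 31.3 in EGR1OV. Xdh (xanthine oxidase) rose from 1.18, 1.36 and 1.12 to 8.90, 9.12 and 8.15 FPKM. Acod1, which makes itaconate and is known from activated macrophages, had 0.394, 0.350 and 0.393 FPKM in Sham and 8.22, 8.12 and 7.70 in EGR1OV. Upp1, a uridine phosphorylase, rose 1.80-fold.

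Proliferation genes moved little. Of 46 DNA replication genes only the helicase gene Mcm6 was called, with 14.6, 15.8 and 16.1 FPKM in Sham and 25.6, 25.5 and 25.7 in EGR1OV. Of 49 genes of mitosis only Pttg1 (securin) was called, from 6.33, 6.28 and 6.39 to 16.1, 14.8 and 17.5 FPKM. Both shares lie below the background of 10.7%. Mki67 had 9.79 ± 0.487 and 9.37 ± 0.315 FPKM and Pcna 29.2 ± 1.86 and 32.9 ± 1.51 (SD, n = 3 each). Of 21 G1 genes 3 were called lower: Rb1, the retinoblastoma gene, went from 8.23, 8.62 and 8.41 to 4.57, 4.74 and 4.76 FPKM, and Mycn and Cdkn1c (p57) fell by 0.73 and 0.72 on the log2 scale. Ccnd1 had 55.1 ± 1.58 and 44.4 ± 0.95 FPKM and Myc 42.0 ± 1.24 and 49.2 ± 2.65, neither called.

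In the insulin-like growth factor axis 6 of 13 genes were called lower (46.2%, against 6.59% of all genes) and 2 higher. The binding protein genes diverged, with Igfbp2 at 373, 375 and 377 FPKM in Sham and 223, 223 and 232 in EGR1OV, and Igfbp5 at 17.3, 18.8 and 15.2 in Sham and 50.8, 48.8 and 46.3 in EGR1OV. The receptor gene Igf1r fell by 0.39 on the log2 scale. In the Egf family Lrig1, an inhibitor of the receptor, rose 2.15-fold, and Egfr itself fell from 52.8, 52.0 and 50.9 to 37.6, 37.3 and 37.9 FPKM. Of 23 genes of Fgf, Vegf and Pdgf signalling 5 were called higher and 4 lower. Fgf7, a mitogen of epithelium, rose 3.04-fold and Vegfc 1.68-fold, and Pdgfd fell by 0.68 on the log2 scale. Of 32 Wnt genes 3 were called higher and 2 lower. Of 12 Notch genes Notch1 was called higher (2.04-fold) and Notch3 and Lfng lower. Of 14 Map kinase phosphatase genes 3 were called higher, and Dusp1 and Dusp6, which limit Erk and p38, had 55.0 ± 1 and 47.0 ± 0.849, and 22.8 ± 0.947 and 26.1 ± 0.464 FPKM (SD, n = 3 each).

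Tubule injury genes moved both ways, with 9 of 30 called higher and 5 lower. Havcr1 (KIM-1), the injury marker of the proximal tubule, fell from 108, 115.8 and 122 to 81.0, 80.8 and 84.1 FPKM, whereas Lcn2, given above, rose 5.60-fold. Spp1 (osteopontin) had 345 ± 3.36 and 326 ± 4.19 FPKM (SD, n = 3 each) and was not called. Of 8 proximal tubule genes 1 was called higher and 2 lower, and Lrp2 (megalin) fell from 3.67, 3.61 and 3.51 to 1.19, 1.28 and 1.20 FPKM. Of 19 genes of the loop, distal tubule and collecting duct 3 were called higher (15.8%, against 10.7% of all genes) and 5 lower (26.3%, against 6.59%). Hsd11b2, which inactivates cortisol in the distal nephron, rose 1.89-fold, while Krt19 had the largest fall of that list, by 0.92 on the log2 scale. Of 28 junction genes 4 were called higher (14.3%, against 10.7% of all genes) and 3 lower (10.7%, against 6.59%), both near the background. Cldn6 fell by 1.10 on the log2 scale, Tjp3 rose 3.48-fold, and Cdh1 (E-cadherin) had 86.2 ± 0.247 and 102 ± 0.856 FPKM with no call.

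Most macrophage and leukocyte markers were lower in EGR1OV. Of 21 such genes that reached 1 FPKM 16 were called lower (76.2%, against 6.59% of all genes) and 2 higher, with a median of -1.20. Of the 21, 4 were under 1 FPKM in EGR1OV and entered through Sham, of which 3 were called lower. Lyz2 had 55.8, 58.6 and 58.6 FPKM in Sham and 6.13, 5.02 and 5.24 in EGR1OV, the largest fall of all genes, and Csf1r, the receptor of Csf1, fell by 1.29 on the log2 scale. The markers called higher were Cd14, an endotoxin co-receptor, at 5.46 ± 0.607 FPKM in Sham and 17.95 ± 1.87 in EGR1OV, and Mpeg1 (perforin 2), at 13.2 ± 0.671 and 17.98 ± 0.607 (SD, n = 3 each). Ptprc (CD45), the defining leukocyte gene, had 0.47 ± 0.0311 and 0.144 ± 0.0126 FPKM. The summed FPKM of all 35 measured genes of the list, also those under 1 FPKM, was 226 to 234.2 in Sham and 80.8 to 92.3 in EGR1OV. In these bulk samples fewer cells of a type and less RNA per cell cannot be told apart, here or in any other gene group. Apoe, the C1q chains, Itgax and the class II genes fell along with them, and the part of such cells in those falls was not tested. Endothelial genes had 2 of 8 called lower (25%), fibroblast genes 1 of 7 (14.3%) and podocyte genes 2 of 5 (40%). The share over all genes was 6.59%, and these lists are small. Of the endothelial and of the podocyte calls, 1 each was under 1 FPKM in EGR1OV and entered through Sham.

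Of the calls, 810 rises and 564 falls lay in genes of none of the 57 lists. Among the largest rises in no innate list was Muc1, a membrane mucin of epithelium, with 0.570, 0.538 and 0.568 FPKM in Sham and 8.68, 8.32 and 9.14 in EGR1OV (15.6-fold). Vnn1, the pantetheinase, rose from 2.27, 2.21 and 1.61 to 15.7, 15.7 and 16.8 FPKM. Neurl3, a ubiquitin ligase, rose 11.9-fold, Rassf10 22.6-fold, Misp, an actin-binding protein of the spindle, 11.01-fold and Il1f6 (interleukin-36 alpha) from at most 0.276 FPKM in Sham to at least 4.57 in EGR1OV. Hap1, Plekhs1, Clca3b, Rnf135 and Tmem106a rose 5.33-fold to 6.23-fold. Il1f6, a cytokine, and Rnf135, a ubiquitin ligase that acts on RIG-I, are known from innate immunity although the lists do not hold them. Among the largest falls were Dgkk, a diacylglycerol kinase, from 17.1, 16.02 and 15.95 to 3.70, 3.78 and 3.95 FPKM, Nppb (brain natriuretic peptide) by 1.65 on the log2 scale and Rcan2, a regulator of calcineurin, by 1.47.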

How the data were processed

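Total RNA of primary tubular epithelial cells was sequenced by Illumina sequencing in 9 libraries (3 each of Sham, H/R and EGR1OV). The authors deposited FPKM per gene in 1 table, already normalized to gene length and library depth. The submitters' processing notes name HISAT2 2.1.0, Bowtie2 2.2.3, TopHat2 and build mm9, with no roles given. However, 99.8% of the gene IDs and 94.6% of the positions equal GENCODE M21 (GRCm38), so gene positions are given as the table has them. Symbols that a spreadsheet had turned into dates (26) were restored by gene ID. Reads were recovered from the FPKM steps, with 94.0% of 162882 values whole within 0.02 reads. The floor was 3 reads, and floors cover counting error only.

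The 13985 genes that averaged 0.5 FPKM or more in the 9 libraries were fitted on log2(FPKM + 1) with limma 3.58.1 (lmFit, eBayes with trend) in R 4.3.3, with all 3 groups in 1 model and Benjamini-Hochberg adjustment over all genes fitted. A log2 change on this scale understates that of low genes. Calls needed a 1.3-fold change or more with an adjusted p below 0.05, and only the 10949 genes of at least 1 FPKM were counted. For the FPKM of Egr1 and Sox9 and the summed FPKM of each list an exact permutation test over libraries (two-sided, scipy 1.17.1) was added. Sums and shares of a list cover all its measured genes, also those under 1 FPKM. Alternatives changed the pseudocount, filter, scaling, model, block, threshold and libraries used.

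Genes and lists were chosen with earlier results of these data known. Named were Egr1, Sox9, the 8 largest rises, the 20 largest rises in no innate list, the 20 largest falls (at least 5 FPKM in the higher group, no overlap), each list's anchor genes and up to 4 called genes of each list with the largest changes. Genes named beyond these were chosen after their values were seen. For genes with several promoter windows the first listed was used. Same-numbered Sham and EGR1OV libraries had correlations of deviations of -0.038, 0.101 and 0.263, so numbers were not taken as pairs. Some genes are not reported here.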

Additional observations from a re-analysis of the deposited data

How the results depend on the processing

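The counts of 1171 genes called higher and 722 lower moved by over 1.5 times under 3 alternatives: 777 and 465 among genes averaging 5 FPKM or more, where fewer genes were tested, 3351 and 2394 with no fold threshold, and 334 and 75 with a 2-fold threshold. Leaving out 1 library at a time gave 1141 to 1228 higher and 707 to 755 lower. Median-ratio scaling gave 1047 and 805, quantile normalization 881 and 1009, a pseudocount of 0.1 FPKM 1408 and 923, and voom on recovered reads 1461 and 946. With the replicate number as a block there were 1174 and 722 calls, and of the named genes only Fzd6 lost its call. The Egr1 change was 2.49 to 2.73 over all alternatives, and 2.51 to 2.61 with 1 library left out. Of 346 named genes 313 kept their call and sign under every alternative other than the fold thresholds that tested them, and 0 reversed, with 253 of them tested at the 5 FPKM minimum. Quantile normalization lost 16 calls of named genes and median-ratio scaling 7. The cause was not tested. Depth limits genes near 0 in Sham, such as Nos2 and Ifnb1, for which no fold was given.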

Other observations

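Of 15 clock genes 2 were called higher (13.3%, against 10.7% of all genes): Arntl (BMAL1), an activator of the clock, had 2.31 ± 0.168 FPKM in Sham and 3.35 ± 0.0811 in EGR1OV, and Nr1d1 (REV-ERB alpha), a repressor, had 6.16 ± 0.371 and 8.53 ± 0.409 (SD, n = 3 each). The Arntl call was lost without Sham replicate 1 (0.36), with median-ratio scaling (0.37) and with quantile normalization (0.34), and the Nr1d1 call without Sham replicate 3 (0.37) and with quantile normalization (0.32). Of 10 retinoid genes 2 were called lower (20%, against 6.59% of all genes). Cyp26b1, which degrades retinoic acid, fell from 2.84 ± 0.0781 to 1.53 ± 0.137 FPKM (SD, n = 3 each). Of 32 Wnt genes 3 were called higher (9.38%) and 2 lower (6.25%). The receptor gene Fzd7 rose from 15.98 ± 0.675 to 23.2 ± 0.597 FPKM, while the ligand gene Wnt4, known from kidney development, fell from 1.66 ± 0.236 to 0.914 ± 0.227 FPKM.

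Trpm6, a magnesium channel of the distal nephron, rose 2.28-fold, from 2.11 ± 0.224 to 4.80 ± 0.213 FPKM (SD, n = 3 each). Of the Map kinase phosphatases, Dusp28 rose 1.86-fold and Dusp4 1.38-fold.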
